A study of Mus musculus with 4 samples.

Results

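The Msx2 and Sox9 loci are 2 of the 25006 tiled regions, and 81 of the 473642 positioned probes, of a promoter tiling set of 2 array designs hybridised with chromatin from mouse forelimb buds. Their probes are those that lie in a coordinate window around each gene, on an array build older than GRCm38 that the sources used here do not name. They form 1 tiled region per gene, with 39 probes over 7.58 kb (chr13:53478088-53485670) and 42 probes over 7.89 kb (chr11:112592876-112600760). Each gene's name rests on that rule, since the files name no genes. Both loci were selected on measured values, the excess of the RING1B ratio over the H3K27me3 ratio, which was among the largest in regions where both antibodies gave a call. Their levels and that difference are therefore descriptions and were not tested.

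Whole forelimb buds came from wild-type embryos of the strain BDF1 at E10.5, were fixed in 1% formaldehyde for 20 min and were pooled. One antibody recognised RING1B and the other H3K27me3, and precipitate and input were hybridised together in different dyes. Both loci lie on array design 2, which was hybridised once per antibody, so there was 1 array per antibody and no replicate. Errors are standard deviations (SD) over neighbouring probes of that 1 array and leave out how embryos or precipitations vary. Buds were pooled whole, so fewer cells carrying a signal and less signal per cell cannot be told apart. No RNA was measured, and the activity of either gene in these buds was not examined.

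RING1B is the catalytic core of Polycomb repressive complex 1, which ubiquitinates histone H2A. Polycomb repressive complex 2 trimethylates histone H3 to give H3K27me3, and both are commonly found at CpG-rich promoters of developmental regulators. Msx2 encodes a homeobox transcription factor and a target of BMP signalling, expressed in limb bud ectoderm and in parts of the mesenchyme. Sox9 encodes an HMG-box transcription factor of prechondrogenic mesenchyme that cartilage formation requires. By that expression each would be on in some limb bud cells and off in others, which was not examined here.

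The Msx2 promoter is shown because CG dinucleotides, in capitals, are dense at many vertebrate promoters bound by Polycomb complexes. These are the 250 bases before the transcript start in RefSeq on GRCm38.p6, chr13:53472781-53473030, minus strand, printed 5′ to 3′ along the gene.
Msx2: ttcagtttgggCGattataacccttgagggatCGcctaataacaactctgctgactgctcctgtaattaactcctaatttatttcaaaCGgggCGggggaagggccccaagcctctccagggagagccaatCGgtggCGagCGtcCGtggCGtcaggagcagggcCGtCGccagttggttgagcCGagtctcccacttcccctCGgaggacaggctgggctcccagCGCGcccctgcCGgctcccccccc
The window holds 16 CG dinucleotides, against a median of 6 over 32851 promoter windows of that length, and 74.6% of them held fewer. Its G+C share was 61.6%, against a median of 52.4%. The motif GGGCGG matched 1 time on either strand (32.7% of all windows hold it) and CANNTG 1 time (66.2%). TATAAA, GCCATNTT and AGGTCA had 0 matches, and are held by 12.4%, 3.91% and 14.0% of windows. The promoter was not placed on the array, whose build differs. Of the 2 genes, Msx2 was matched in the promoter table.

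All values below are log2 ratios of Cy5 over Cy3, centred on the array median. This opposes the labels, where Cy3 is the precipitate and Cy5 the input. A high level below means high Cy5 over Cy3, which is enrichment only if Cy5 held the precipitate. Taking the dyes from the labels turns each sign. Between the RING1B and H3K27me3 arrays, log2 Cy3 signals had a Pearson's r of 0.84 over 178359 probes and Cy5 signals 0.72. At Sox9 these were 0.90 and 0.55, while at Msx2 Cy5 was the higher (0.85 and 0.88). Which dye held the precipitate was not tested. A top window is the highest mean of 3 neighbouring kept probes. A window or region was called when it reached 2.7 for RING1B (6.50-fold) or 2.9 for H3K27me3 (7.46-fold). Thresholds were raised by 0.05 until regions as far below 0 came to no more than 5 for every 100 called. On array 2, 7.85% of 9997 regions were called for RING1B and 14.1% of 9985 for H3K27me3 (6.74% and 13.6% at 8-fold), and 7.7% of 9801 regions were called for both.

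RING1B at Msx2 formed one sharp summit on top of a broad plateau. The 3 probes of the top window read 5.42, 6.25 and 6.25, a mean of 5.97 ± 0.48 (SD over 3 probes), or 62.7-fold. They lie at chr13:53482040-53482407, and the highest of them reached 76.2-fold. The lower-coordinate side is the gene side, since Msx2 is on the minus strand. RING1B windows on that side stayed called out to the end of the tiled region, at a falling level. The 6 probes beyond 3 kb averaged 3.15 ± 0.54 (SD), and the end probe read 2.29, below the threshold. The 13 probes more than 1 kb away on that side averaged 3.40 ± 0.70 (SD). In all, 20 of 38 kept probes reached 8-fold, a log2 ratio of 3 (52.6%, against 4.34% of probes on the array). On the upstream side the mean was 2.06 ± 0.97 (SD over 7 probes) at 1 to 2 kb from the summit and 0.32 ± 0.37 (SD over 6 probes) at 2 to 3 kb. The last 2 probes read -0.02 and -0.96. RING1B called windows formed 1 unbroken stretch of 5.42 kb and made up 23 of 36 windows (63.9%), where 5.15% of all RING1B windows on the array were called. At a threshold of 8-fold the longest stretch was 3.44 kb.

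H3K27me3 at Msx2 peaked on the same 3 probes at a lower ratio and had a flatter profile. Its readings there were 3.64, 4.53 and 4.24, a mean of 4.14 ± 0.45 (SD over 3 probes), or 17.6-fold. Over all 39 probes H3K27me3 ran from 0.07 to 4.53 with a median of 2.15, and 0 probes lay below 0. RING1B ran from -0.96 to 6.25 with a median of 3.20 over 38 kept probes, and 3 lay below 0. H3K27me3 called windows numbered 13 of 37 (35.1%, against 9.21% of windows on that array) in 3 stretches, the longest 2.43 kb. Relative to each antibody's own top, 9 of 37 windows were within 1 log2 unit for H3K27me3 and 4 of 36 for RING1B.

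**Figure D1:**
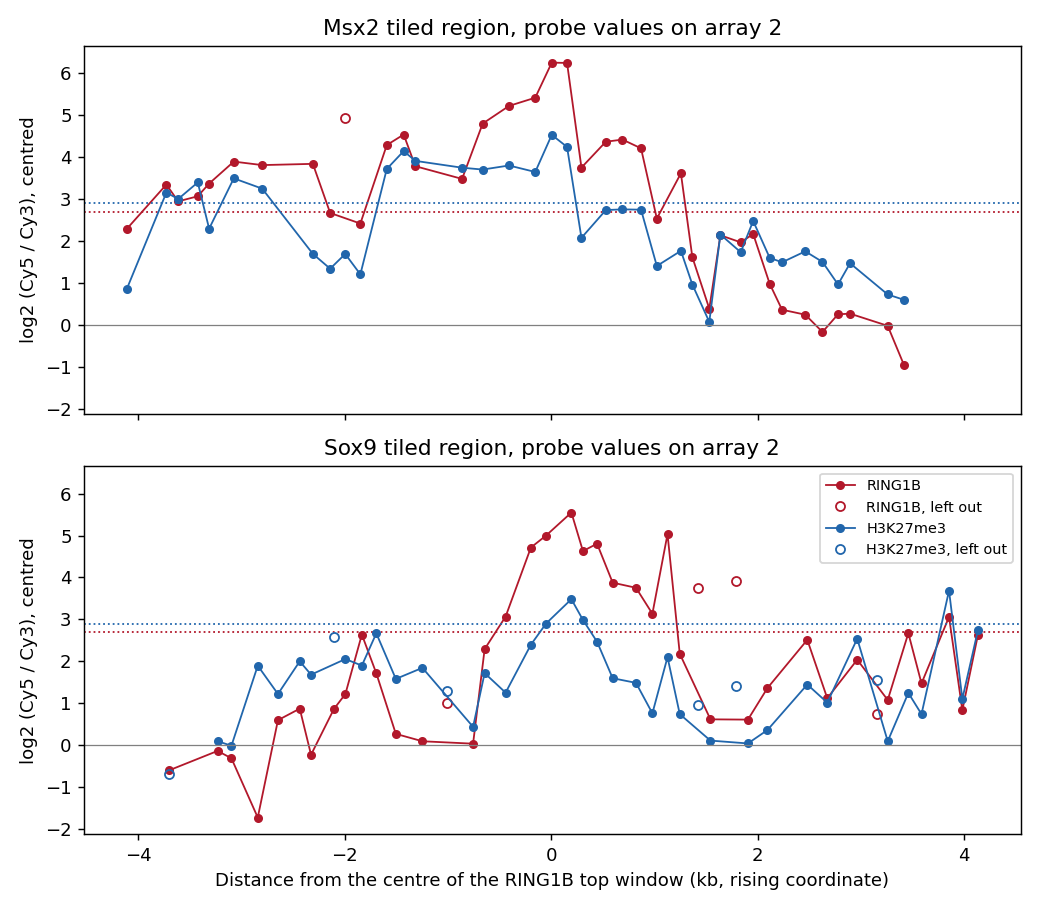
Centred log2 ratio of Cy5 over Cy3 for each probe of the Msx2 (top) and Sox9 (bottom) tiled regions on the RING1B (red) and H3K27me3 (blue) arrays, by distance from the centre of the RING1B top window in kb of rising coordinate; dotted lines are the call thresholds of 2.7 and 2.9, and open circles are probes left out as not well above background. The RING1B top windows reach 5.97 at Msx2 and 5.09 at Sox9, above H3K27me3 at 4.14 and 3.12, and RING1B lies below H3K27me3 at the right end of Msx2 and in most of the left part of Sox9.

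RING1B at Sox9 formed a narrower peak in the main setting, by length of the called stretch. The 3 probes of its top window ran from 4.71 to 5.55, with a mean of 5.09 ± 0.42 (SD over 3 probes), or 34.0-fold. The stretch of called windows was 1.94 kb (chr11:112595926-112597867). It held 10 of 36 windows (27.8%, where 5.15% of all RING1B windows on the array were called). Within it, single probes differed, with 2.18 on a 45 base probe beside 5.03 on a 58 base probe at its higher-coordinate end. Just beyond that end, left-out probes read 3.75 and 3.92, and the 45 base probes next to them 0.62 and 0.61. The width thus depends on which probes are kept. With probes of 55 bases or more the called share for RING1B was 60% at Sox9 and 70.6% at Msx2. That setting kept the threshold of 2.7 and called 641 regions of the array for RING1B, against 785. RING1B at the 3 outermost probes of the lower-coordinate end averaged -0.35 ± 0.23 (SD). It did not return to that level at the other end, where 6 kept probes beyond 3 kb averaged 1.96 ± 0.94 (SD) and reached 3.06. Over its 38 kept probes RING1B ran from -1.73 to 5.55 with a median of 1.59, and 5 lay below 0.

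H3K27me3 at Sox9 was only just over its threshold. Its top window read 2.90, 3.48 and 2.99, a mean of 3.12 ± 0.31 (SD over 3 probes), or 8.71-fold, and its centre lay 130 bp from that of RING1B. Called windows numbered 3 of 34 (8.82%, close to the 9.21% of all windows on that array) and spanned 0.70 kb. The highest single probe, at 3.69, was not in this window but near the higher-coordinate end. Over 36 kept probes H3K27me3 ran from -0.01 to 3.69 with a median of 1.59. In all, 2 of 36 probes reached 8-fold (5.56%, where 8.51% of probes on that array did). For RING1B it was 11 of 38 (28.9%, where 4.34% of probes on its own array did). The H3K27me3 call was lost under 3 alternatives. Without a filter on dim probes the top window was 3.30 against a threshold of 3.45, keeping probes that passed in either channel it was 3.25 against 3.5, and with centring on the mode it was 2.97 against 3.05.

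Msx2 had higher values than Sox9 for both antibodies in the main setting. The top window was higher by 0.88 for RING1B and by 1.02 for H3K27me3, and the mean over all kept probes by 0.91 and 0.79. The locus means were 2.83 ± 1.87 (SD over 38 probes) and 1.93 ± 1.83 (SD over 38 probes) for RING1B. For H3K27me3 they were 2.35 ± 1.18 (SD over 39 probes) and 1.57 ± 1.00 (SD over 36 probes). The means differ by less than the spread of probes within either locus, while the top windows differ by more than their SDs. With loess the top windows differ by less than theirs, with 4.63 ± 0.61 (SD) and 4.18 ± 0.52 (SD) for RING1B and 3.05 ± 0.71 (SD) and 2.83 ± 0.72 (SD) for H3K27me3. With probes of 55 bases or more the order of the RING1B locus means turned, with 3.05 at Msx2 and 3.07 at Sox9.

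At the summits RING1B exceeded H3K27me3 by 1.83 at Msx2 (3.56-fold between ratios) and 1.96 at Sox9 (3.90-fold). This is the difference for which the loci were picked. Among the 1438 regions called for either antibody, 5.42% had RING1B higher by at least 2-fold and 57.5% had H3K27me3 higher by as much. In the 755 regions called for both, the median difference was -0.41 (quartiles -1.09 and 0.33), and Sox9 ranked 2 and Msx2 ranked 3 by excess of RING1B. Thresholds were set anew in each setting, so other regions were then called for both. The median over those turned its sign when dim probes were kept (0.42 over 290 regions). It also turned when a pass in either channel was enough (0.46 over 286) and with loess (0.03 over 620). The RING1B threshold was 4.55 when dim probes were kept or a pass in either channel was enough, and 2.55 with loess. By rank, Msx2 moved to 45 of 1548 with normexp and to 14 of 814 with windows of 5 probes, and Sox9 to 18 of 620 with loess. Normexp started from raw median signals in place of processed signals, with an offset of 50 added to both channels. Without the highest probe of each locus they ranked 7 and 8 of 755. The arrays are not on a common scale, with an SD of all ratios of 1.41 for RING1B and 1.68 for H3K27me3. Divided by these SDs, the excess of RING1B was 1.76 at Msx2 and 1.74 at Sox9.

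The excess lay in the Cy5 channel. On the 3 summit probes of Msx2, Cy5 signals on the RING1B array were 62019, 71114 and 38038, against 18130, 21990 and 9239 on the H3K27me3 array, so that each was 3.23 to 4.12 times higher. Cy3 signals of the same probes were 1451, 932 and 501 against 1263, 829 and 425, a factor of 1.12 to 1.18. At Sox9 the factor over the RING1B top window was 3.68 to 5.87 in Cy5 and 1.01 to 1.57 in Cy3. Per the labels Cy5 held the input. Cy3 at these summits was dim, with raw medians of 41 to 113 at the RING1B top windows over local backgrounds of 11 to 16, which limits the precision of the ratios. No summit probe was saturated.

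**Figure D2:**
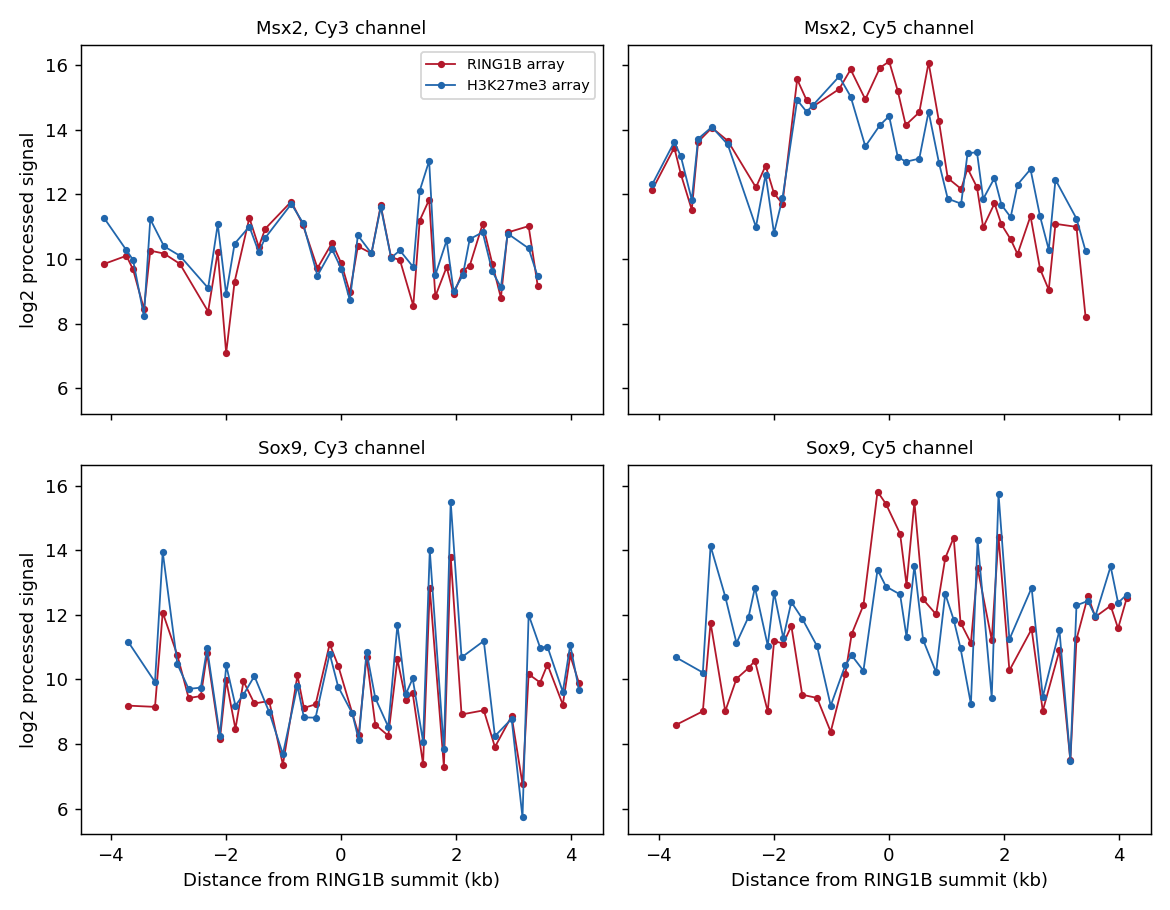
Log2 processed signal of each probe in Cy3 (left) and Cy5 (right) at Msx2 (top) and Sox9 (bottom) on the RING1B array (red) and the H3K27me3 array (blue), by distance from the RING1B summit in kb. Near 0 kb the Cy5 traces separate, by factors of 3.23 to 4.12 on the Msx2 summit probes, while the Cy3 traces lie close together.

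The difference between arrays in each channel moved with probe length. Probes are 45 to 60 bases long, and over the 178359 probes kept on both arrays Cy3 of the 45 to 47 base probes was lower on the RING1B array by a median log2 difference of -0.96, against 0.03 for 60 base probes. At Msx2 the medians were -0.83 (11 probes) and 0.11 (12 probes), and at Sox9 -1.17 (11 probes) and 0.29 (7 probes). Cy5 moved too, with medians of -1.04 and -0.27 over the array, -0.47 and 0.04 at Msx2, and -1.05 and 1.88 at Sox9. Within the loci length went with position. At Sox9 most 60 base probes lay within 1 kb of the RING1B summit and most 45 to 47 base probes farther away. At Msx2 all 45 to 47 base probes lay more than 1 kb from it. Length and position thus cannot be told apart in the medians of the loci. The difference between antibodies itself had a Pearson's r with length of -0.06 over the array, -0.14 at Msx2 and 0.06 at Sox9. The part of probe length in that difference was not tested beyond these coefficients and the setting that follows. All probes of the 4 top windows were 60 bases long. With probes of 55 bases or more alone, the top windows and the differences of 1.83 and 1.96 were unchanged, while the locus means were 3.05 and 2.78 at Msx2 and 3.07 and 2.33 at Sox9.

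The difference between antibodies turned along each locus. Within 1 kb of the Msx2 summit RING1B was higher at 9 of 10 probes, by 1.42 ± 0.64 (SD). Over the array RING1B was higher at 52.7% of probes and H3K27me3 at 47.3%, and RING1B was higher by at least 2-fold at 17.7%. More than 1 kb away on the upstream side H3K27me3 was higher at 10 of 15 probes, with a mean difference of -0.35 ± 1.04 (SD). With normexp, which adds 50 to both channels, this mean turned to 0.42, with RING1B higher at 9 of 15. The share of all probes with RING1B higher is not given for normexp. More than 2 kb away on that side H3K27me3 was higher at 8 of 8 probes (6 of 8 with normexp). There RING1B averaged 0.12 ± 0.55 (SD) and H3K27me3 1.26 ± 0.44 (SD), a mean difference of -1.14 ± 0.41 (SD over 8 probes). Toward the gene the sign of the mean did not turn, with RING1B higher at 10 of 13 probes more than 1 kb away, by 0.68 ± 0.72 (SD). With probes of 55 bases or more the antibodies were nearly equal there, with RING1B higher at 4 of 6, by 0.19 ± 0.33 (SD).

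At Sox9 the turn in the main setting lay on the lower-coordinate side, which is upstream for Sox9, a gene of the plus strand. Within 1 kb of the summit RING1B was higher at 10 of 11 probes, by 1.76 ± 0.89 (SD). More than 1 kb away on the lower-coordinate side H3K27me3 was higher at 10 of 11 probes, with a mean of 1.54 ± 0.82 (SD) against 0.45 ± 1.16 (SD) for RING1B. The mean difference of -1.08 ± 1.12 (SD) rested in part on 1 probe at -3.62. With normexp the count turned, with RING1B higher at 6 of the 11. On the other side RING1B was higher at 10 of 14 probes, by 0.66 ± 0.94 (SD). With probes of 55 bases or more it was higher there at 1 of 4, with a mean difference of 0.42 ± 1.69 (SD). Beyond 2 kb on that side, H3K27me3 was then higher at 3 of 3, with a mean difference of -0.41, so the sign turned there too. The upstream sides rest on the genes' strands, and the transcript starts were not placed on the array. The sizes depend on the zero of each array. Over the 8 alternatives that keep the dye order and can move a mean over probes, the mean difference within 1 kb ran from 1.23 to 2.30 at Msx2 and from 1.36 to 2.10 at Sox9. Beyond 1 kb upstream it ran from -1.01 to 0.42 at Msx2, where its sign thus turned, and from -1.13 to -0.08 at Sox9. Beyond 2 kb it ran from -1.20 to -0.08 and from -1.91 to -0.23. The value of -1.91 rests on 1 probe, the only one there of 55 bases or more. The ends nearest 0 came from normexp, where H3K27me3 was higher at 3 of 6 Sox9 probes beyond 2 kb.

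**Figure D3:**
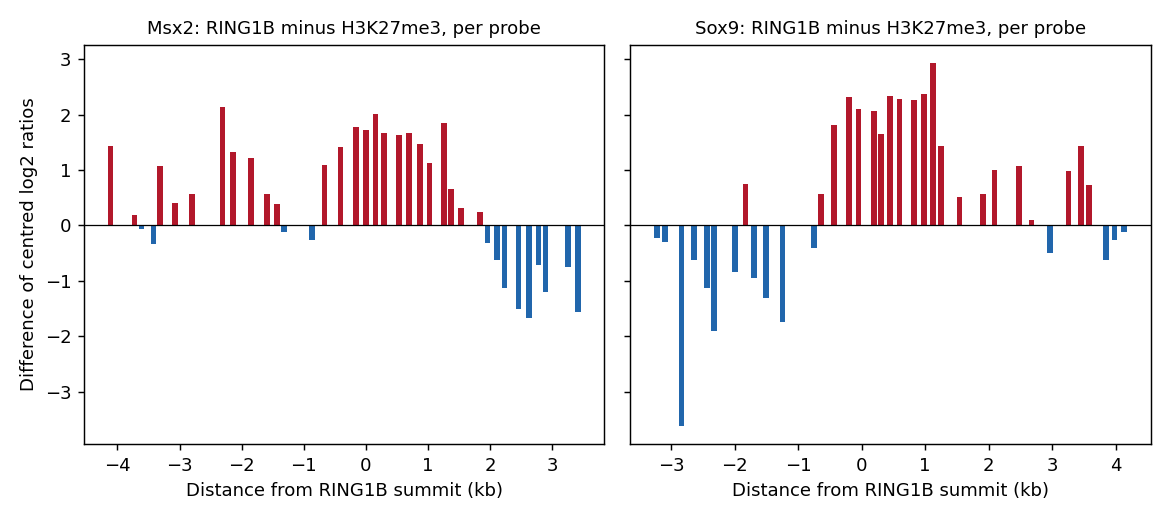
RING1B minus H3K27me3, as the difference of centred log2 ratios, for each probe kept on both arrays at Msx2 (left, 38 probes) and Sox9 (right, 36 probes), by distance from the RING1B summit in kb; red bars are probes where RING1B was higher and blue bars probes where H3K27me3 was higher. Red bars fill the kilobase on either side of 0 apart from 1 probe per locus, and blue bars fill the right end of Msx2 and most of the left part of Sox9.

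Across the probes of a locus the antibodies followed each other more closely at Msx2 than at Sox9. Pearson's r was 0.83 and Spearman's rho 0.82 over 38 probes of Msx2, and 0.57 and 0.56 over 36 probes of Sox9. Over all probes of the array they were 0.67 and 0.56. Probes of a locus share 1 hybridisation per antibody and neighbouring probes measure overlapping chromatin fragments, so these values are descriptions. Whether the coefficients of the loci differ was not tested.

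Among all regions of the array, RING1B placed both loci near the top and H3K27me3 placed them lower. Msx2 ranked 81 of 9997 by RING1B top window and 765 of 9985 by H3K27me3. Sox9 ranked 170 and 1293. With the dyes as labelled, by the highest window of Cy3 over Cy5, Msx2 ranked 8768 and 9271 and Sox9 7033 and 8225. Other regions with Msx2's H3K27me3 top window, within 0.25, numbered 327 and had a median RING1B of 2.73. Their highest value was 5.47, below the 5.97 of Msx2. For Sox9 there were 254 such regions, with a median of 1.55 and a highest value of 4.55. Conversely, the 52 regions with Msx2's RING1B level had a median H3K27me3 of 5.26 and a lowest value of 4.59, and the 63 with that of Sox9 had 4.87 and 3.74. These ranks follow from how the loci were selected.

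**Figure D4:**
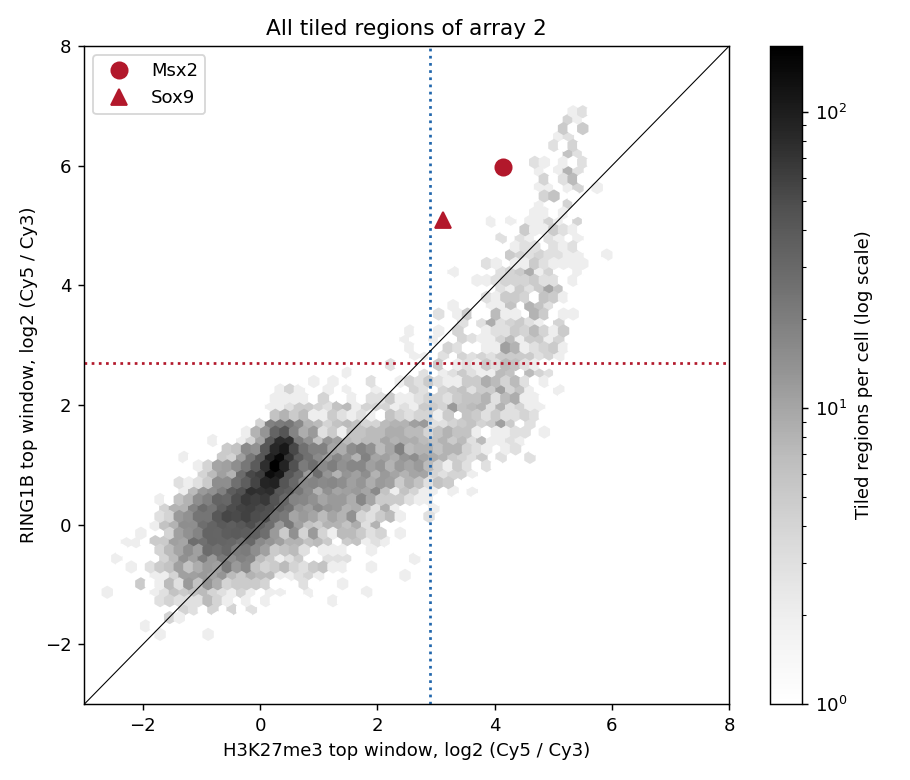
RING1B top window against H3K27me3 top window, both as centred log2 ratios of Cy5 over Cy3, for the 9801 tiled regions of array 2 with a value for both; the grey scale gives regions per cell, dotted lines the call thresholds, and the solid line equality. Msx2 (circle) and Sox9 (triangle) lie above the line of equality and above the other regions of like H3K27me3 values.

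By share of windows called, Msx2 was broad for RING1B. In the 747 regions called for both antibodies that held 10 or more windows, a median of 29.6% of windows was called for RING1B and 50% for H3K27me3. Msx2 had 63.9% and 35.1%, above 80.3% and above 30.9% of these regions. Sox9 had 27.8% and 8.82%, above 47.4% and above 3.61% of them. At both loci the share was larger for RING1B than for H3K27me3, the reverse of the order of the medians. The shares moved with the processing, and the thresholds were set anew in each setting, so the shares are not at one cutoff. With dim probes kept the order turned at Msx2, with 16.2% for RING1B and 21.6% for H3K27me3, while Sox9 had 10% and 0%. The thresholds were then 4.55 and 3.45, and 291 and 1265 regions of the array were called, against 785 and 1409 in the main setting. With normexp the shares were 80.6% and 56.8% at Msx2 and 52.8% and 23.5% at Sox9. Its thresholds were 0.75 and 0.65, and 3035 and 1867 regions of the array were called. H3K27me3 at Msx2 had 5.41% with loess (threshold 2.65, 1132 regions called) and 21.6% with centring on the mode (threshold 3.05, 1261 regions). Probes of 55 bases or more gave 70.6% and 58.8% at Msx2 and 60% and 20% at Sox9. Thresholds were then 2.7 and 2.95, and 641 and 1221 regions were called. In the labelled direction 0 windows of either locus were called for either antibody, where 0.025% of RING1B windows and 0.0712% of H3K27me3 windows on the array were. The rule that set the thresholds keeps calls in that direction few.

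The regions most like each locus were found by distance over the 2 top windows. For Msx2 the closest was chr14:121598362-121613165, with RING1B at 6.06 ± 0.52 (SD over 3 probes) and H3K27me3 at 4.59 ± 0.39. It was followed by chr11:83664460-83669720, chr18:81146258-81153972, chr13:48267849-48275803 and chr12:112353661-112360034, at distances of 0.46 to 0.54. In these 4 RING1B ran from 5.47 to 6.32 and H3K27me3 from 4.34 to 4.63. For Sox9 the closest was chr10:12775670-12783461, with 4.55 ± 0.59 and 3.33 ± 0.53, then chr11:96127952-96137295, chrX:134256997-134263366, chr13:52593398-52598303 and chr12:34537665-34545612, at distances of 0.58 to 0.75. Msx2 and Sox9 lay 1.35 apart, and Sox9 ranked 168 by closeness to Msx2. Likeness here covers 2 values from 2 arrays.

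The neighbouring tiled regions found near the loci stayed below the call thresholds. Within 500 kb of Msx2 there were 4 others with a value for both antibodies, the nearest 87.9 kb away. All were on the lower-coordinate side, so none showed the upstream side. Their RING1B top windows ran from -1.01 to 1.74 and their H3K27me3 top windows from 0.30 to 2.60, and 0 were called for either antibody. Within 500 kb of Sox9 there were 2, at 35.0 kb and 59.9 kb, with RING1B at 0.74 and 0.59 and H3K27me3 at -0.14 and 0.10. All lay on array 2, and chromatin between tiled regions was not measured.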

How the data were processed

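Each array held 1 precipitate and 1 input from pooled forelimb buds. Per the file headers, the authors extracted scans with Agilent Feature Extraction 10.1.1.1. The processed signals deposited are intensity values on a linear scale, after background subtraction, detrending and linear dye normalization. The deposited log ratios are log10 values of Cy5 over Cy3. The deposited value table holds them on the log2 scale, not centred, and 99.8% and 99.9% of its values lay within 0.001 of the scanner files once probe names were sorted. Per the labels, DNA was amplified in 2 rounds with T7 RNA polymerase.

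Here log2 ratios of processed signals were centred on the median of kept probes (198766 for RING1B and 196983 for H3K27me3 on array 2). Control spots, outlier spots and spots that failed Agilent's background flag in Cy3 or Cy5 were dropped, which removed 1 and 0 Msx2 probes and 4 and 6 Sox9 probes. Probes with starts at most 1000 bp apart formed a region. The median SD between spots of one control probe was 0.15 and 0.11, and neighbouring probes differed with an SD of 1.07 and 0.93. Depth has no count on arrays, and their number limits the precision. No test across samples was possible with 1 array per antibody, and no p-value is given. The window search was tested on simulated data. Python 3.11.15, R 4.3.3 and limma 3.58.1 (normexp with an offset of 50 on raw median signals, loess on processed signals) were used.

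The members and lists were chosen with earlier results of these data known. Regions like each locus were the 5 nearest by Euclidean distance. Other genes of the list set for naming were not analysed here, since no table paired probes with genes. Array design 1 entered only the probe counts and the search for neighbouring regions.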

Additional observations from a re-analysis of the deposited data

How the results depend on the processing

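No paired analysis was possible because the replicate numbers of the titles are array designs that share no probe of these loci, and leaving out a replicate would leave none. With the dyes as labelled, the windows reported as top read -5.97 (RING1B) and -4.14 (H3K27me3) at Msx2 and -5.09 and -3.12 at Sox9, and are then the lowest. Their differences became -1.83 and -1.96, and the locus means -2.83 and -2.35 at Msx2 and -1.93 and -1.57 at Sox9. The highest windows are then 0.24 and -0.93 at Msx2 and 0.73 and -0.17 at Sox9, which differ by 1.17 and 0.90. At the same thresholds 35 and 51 regions would then be called, in place of 785 and 1409. These counts were bound to be small, since the thresholds were set to hold such regions to 5 per 100 called. In the labelled direction no threshold met that rule. With normexp the top windows were 4.89 and 2.90 at Msx2 and 4.23 and 1.09 at Sox9, the H3K27me3 means 1.07 and 0.39 and the Sox9 difference 3.14, and 3035 regions were called for RING1B. With loess the top windows were 4.63 and 3.05 at Msx2 and 4.18 for RING1B at Sox9, where the difference was 1.35. RING1B calls numbered 291 regions when dim probes stayed in, and 288 when a pass in either channel was enough. The cause of these shifts was not tested. Other settings (value table, mode, windows of 5 probes, medians, without the highest probe of each locus, probes of 55 bases or more, 8-fold) moved these values by less than the SD over the probes behind them, and counts of regions by less than 1.5 times. The alternatives on probe length, on ratios divided by the SD of each array and on probes kept on both arrays were chosen after seeing the data. With centring on the mode the difference rose to 2.16 at Msx2 and 2.29 at Sox9. Cy3 at the summits, only a few times its local background, limits how well ratios this high are known.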
